A study of Mus musculus with 15 samples.

Results

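The genes described here encode receptors through which blood stem and progenitor cells receive cytokine signals: Kit, Csf3r, Csf2ra, Csf2rb, Il3ra, Il6ra, Il6st, Ifngr1 and Il1r1. They were chosen by name, with earlier results of these data known. Their values were read from every probe set of the array that the platform annotation ties to 1 of these symbols and no other. Of the 9 genes, 8 were measured, by 13 of the 28898 probe sets with 1 gene symbol. Csf2rb and Il6st had 3 probe sets each, Il6ra had 2 and the others had 1. For Csf2ra, the alpha chain of the GM-CSF receptor, there was no such probe set, so it is not analysed here. Where a gene had several probe sets, the one with the highest mean over the arrays gives its value and the others serve as a check.

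The cells were LSK cells: marrow cells that lack lineage markers and carry both Sca-1 and Kit, among which are the blood stem cells and the earliest progenitors. Donor marrow came from female C57Bl/6 mice given 5-fluorouracil, a drug that kills cycling cells, and went into lethally irradiated recipients. In the HOXB4 groups the marrow had been transduced with the retrovirus MSCV-HOXB4-ires-YFP, which carries the homeobox factor HOXB4 with a yellow fluorescent protein. In the GFP groups it had been transduced with MSCV-ires-GFP, which carries a green fluorescent protein alone, so both arms share the 5-fluorouracil, the transduction and the transplant. Transduced LSK cells were sorted at 6, 12 and 20 weeks after transplantation for HOXB4 and at 12 and 20 weeks for GFP, giving 5 groups of 3 arrays. HOXB4 was expressed from a retroviral vector, and the labels leave unsaid whether a group's 3 arrays stem from separate mice.

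Most of these proteins act in pairs. A ligand-binding chain such as Il3ra or Il6ra has little signalling capacity of its own and joins a shared chain, Csf2rb or Il6st (gp130), which is bound by JAK kinases that phosphorylate STAT proteins. Csf3r signals as a homodimer through the same kinases, Ifngr1 works with Ifngr2, Kit is itself a tyrosine kinase, and Il1r1 uses the adaptor Myd88. In marrow, G-CSF acting on Csf3r drives neutrophil production, while stem cell factor acting on Kit maintains stem and progenitor cells.

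Csf3r and Il6ra had the largest differences between HOXB4 and GFP cells among the 8 receptors, so the windows around their transcription starts are shown. Each runs from 250 bases before to 50 bases after the start, from RefSeq on GRCm38.p6, and capitals mark matches to 2 motifs of myeloid transcription factors. One is an Ets type motif, GAGGAA. The other is a C/EBP type motif, TTNCNNAA. Both strands were searched.
Csf3r promoter, chr4:126024409-126024708, plus strand: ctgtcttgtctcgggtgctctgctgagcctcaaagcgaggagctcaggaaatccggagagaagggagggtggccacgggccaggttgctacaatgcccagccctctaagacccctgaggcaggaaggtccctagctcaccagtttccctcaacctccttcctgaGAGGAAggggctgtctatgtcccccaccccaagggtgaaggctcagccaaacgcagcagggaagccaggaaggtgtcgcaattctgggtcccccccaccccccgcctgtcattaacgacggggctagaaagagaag
Il6ra promoter, chr3:89913147-89913446, minus strand: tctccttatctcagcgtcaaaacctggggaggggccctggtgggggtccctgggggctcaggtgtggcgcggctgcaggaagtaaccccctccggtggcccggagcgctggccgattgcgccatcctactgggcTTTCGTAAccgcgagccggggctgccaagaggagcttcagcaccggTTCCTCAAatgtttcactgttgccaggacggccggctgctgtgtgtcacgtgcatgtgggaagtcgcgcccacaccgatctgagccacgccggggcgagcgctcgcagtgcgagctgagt
The Csf3r window held 1 Ets type match, 86 bases before the start, and no C/EBP type match. The Il6ra window held a C/EBP type match 116 bases before the start, whose letters match on both strands. A further C/EBP type match 70 bases before the start overlapped an Ets type match on the opposite strand. These letters are common: of 32851 mouse promoter windows of the same length, 28.3% held the Ets type and 40.7% the C/EBP type motif. Of the other genes, Csf2ra had both motifs, Kit had the Ets type and Il3ra and Il1r1 the C/EBP type, while the Il6st and Ifngr1 windows held neither. A STAT type motif, TTCNNNGAA, and the AP-1 motif TGACTCA were in none of the windows of the 8 genes that had one. These 8 included Csf2ra, while Csf2rb had no window. Of all windows 8.3% and 5.2% held these motifs, and none among so few windows is close to those shares.

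Several of these receptors had lower signals with HOXB4 than with GFP alone. At 12 weeks 5 of the 8 measured receptors were lower (Csf3r, Il6ra, Il1r1, Il3ra and Kit), 0 were higher and 3 did not pass the test. A gene was called when its adjusted p in limma, fitted over all 17097 genes and 15 arrays, was under 0.05. Of all genes tested at 12 weeks, 1.82% were called higher, 2.2% lower and 4.02% were called in either direction. The median log2 difference, HOXB4 minus GFP, was -0.73 over the 8 receptors and -0.02 over all genes. HOXB4 and GFP arrays were fully apart for 8 of the 8 receptors at that time, against 34.8% of all genes.

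At 20 weeks 3 of the 8 receptors were lower in HOXB4 cells (Csf3r, Il6ra and Ifngr1), 0 were higher and 5 did not pass. Of all genes, 3.77% were called higher, 5.18% lower and 8.95% in either direction at that time. The median log2 difference at 20 weeks was -0.38 over the receptors and 0.02 over all genes. The groups did not overlap for 4 of 8 receptors, against 25.4% of all genes. Values below are log2 signals for arrays 1, 2 and 3 of each group, and differences are in log2 units with the model's standard error (SE). These are bulk samples, so fewer cells of a type and less RNA per cell cannot be told apart. Levels of different genes come from different probes and are not set against each other.

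**Figure D1:**
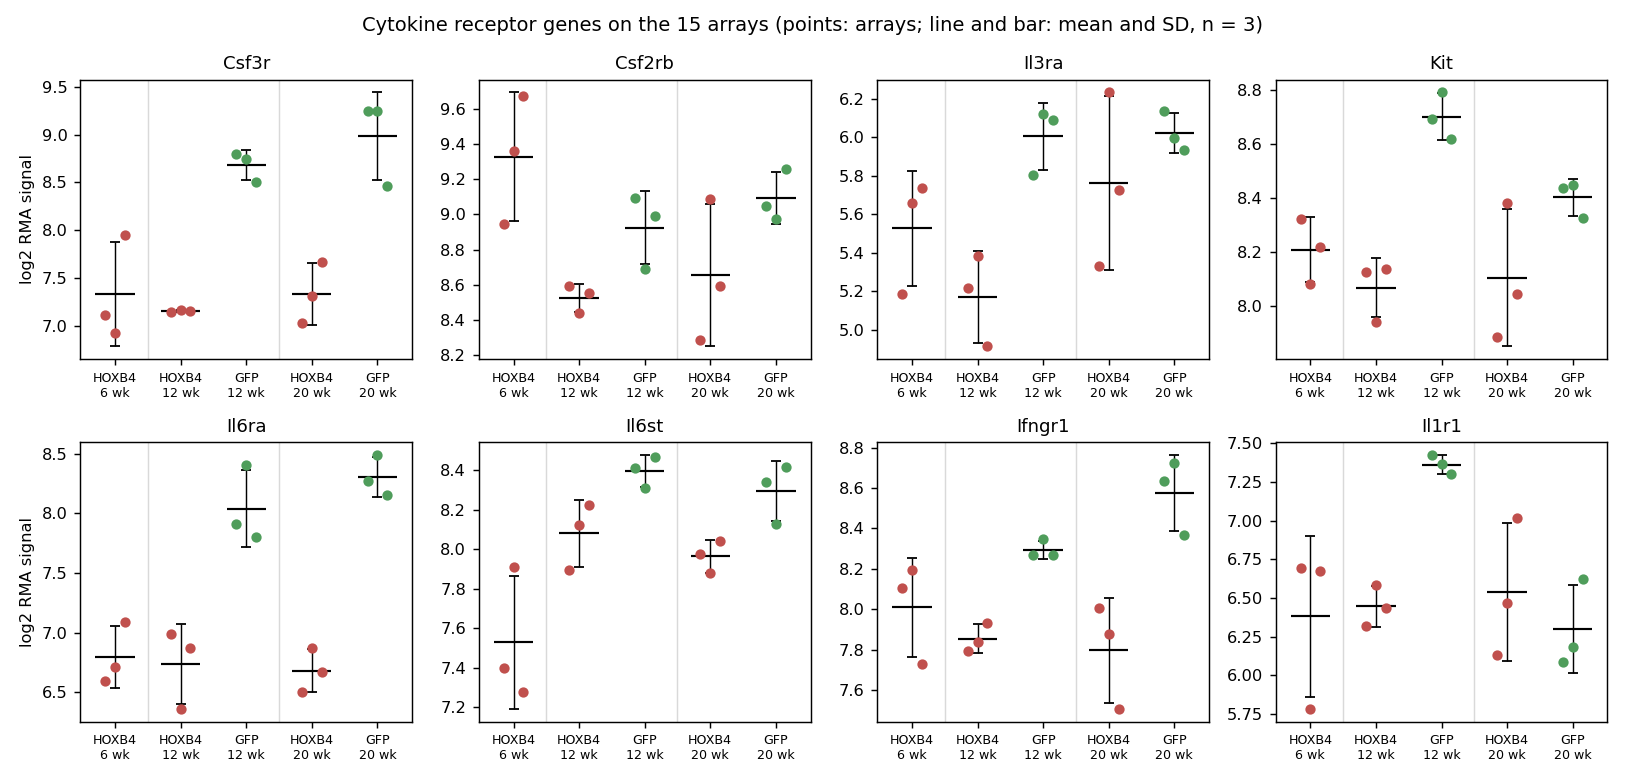
The 8 measured receptors on the 15 arrays, as log2 RMA signal of the brightest probe set, with 1 panel per gene and the groups on the horizontal axis. Points are arrays, and the line and bar are the mean and SD of 3 arrays. For Csf3r, Il6ra and Ifngr1 all 9 HOXB4 arrays lie below all 6 GFP arrays. Il1r1 is high in the 3 GFP arrays at 12 weeks only. The share of all genes with such a split was not computed.

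Csf3r, the G-CSF receptor, was lower in HOXB4 cells at both times. At 12 weeks it stood at 7.14, 7.17 and 7.16 in HOXB4 cells, against 8.80, 8.75 and 8.50 in GFP cells. At 20 weeks it stood at 7.03, 7.31 and 7.67 in HOXB4 cells, against 9.25, 9.25 and 8.46 in GFP cells. No HOXB4 array reached the lowest GFP array at either time. Csf3r was 2.88-fold lower at 12 weeks (log2 difference -1.53, SE 0.25, limma adjusted p = 0.00579). It was 3.13-fold lower at 20 weeks (-1.65, SE 0.25, adjusted p = 0.00082). HOXB4 cells at 6 weeks gave 7.12, 6.93 and 7.95, the lowest and the highest of the 9 HOXB4 arrays among them, and also lay below every GFP array of the later times.

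Il6ra, the ligand-binding chain of the interleukin-6 receptor, behaved likewise. At 12 weeks its signal was 6.99, 6.36 and 6.87 in HOXB4 cells, against 7.91, 8.41 and 7.80 in GFP cells. At 20 weeks it was 6.502, 6.87 and 6.67 in HOXB4 cells, against 8.27, 8.49 and 8.15 in GFP cells. The groups were apart at both times. Il6ra was 2.46-fold lower at 12 weeks (log2 difference -1.30, SE 0.20, limma adjusted p = 0.00319) and 3.08-fold lower at 20 weeks (-1.62, SE 0.20, adjusted p = 0.000129). HOXB4 cells at 6 weeks gave 6.59, 6.71 and 7.08, also below every GFP array of the later times.

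The other Il6ra probe set gave the same picture, with 6.24, 6.44 and 6.48 in HOXB4 cells at 12 weeks, against 7.49, 7.30 and 7.44 in GFP cells. The arrays of 20 weeks read 6.30, 5.84 and 6.37 in HOXB4 cells, against 7.48, 7.66 and 7.28 in GFP cells. Its log2 difference was -1.02 at 12 weeks (SE 0.15, limma adjusted p = 0.00387 over all probe sets) and -1.30 at 20 weeks (SE 0.15, adjusted p = 0.000115). Both Il6ra probe sets were thus called at both times.

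Il6st (gp130), the chain that transmits the interleukin-6 signal, was not called in either comparison. At 12 weeks it stood at 7.89, 8.12 and 8.22 in HOXB4 cells and at 8.41, 8.31 and 8.47 in GFP cells. At 20 weeks it stood at 7.97, 7.88 and 8.04 in HOXB4 cells and at 8.34, 8.13 and 8.42 in GFP cells. The arrays of the groups did not overlap at either time. The log2 difference of Il6st was -0.32 (SE 0.15, limma adjusted p = 0.269) at 12 weeks and -0.33 (SE 0.15, adjusted p = 0.218) at 20 weeks. Its other 2 probe sets had differences of -0.17 and -0.26 at 12 weeks and of -0.43 and -0.20 at 20 weeks, and none was called. Whether Il6ra differed more than Il6st was not tested.

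**Figure D2:**
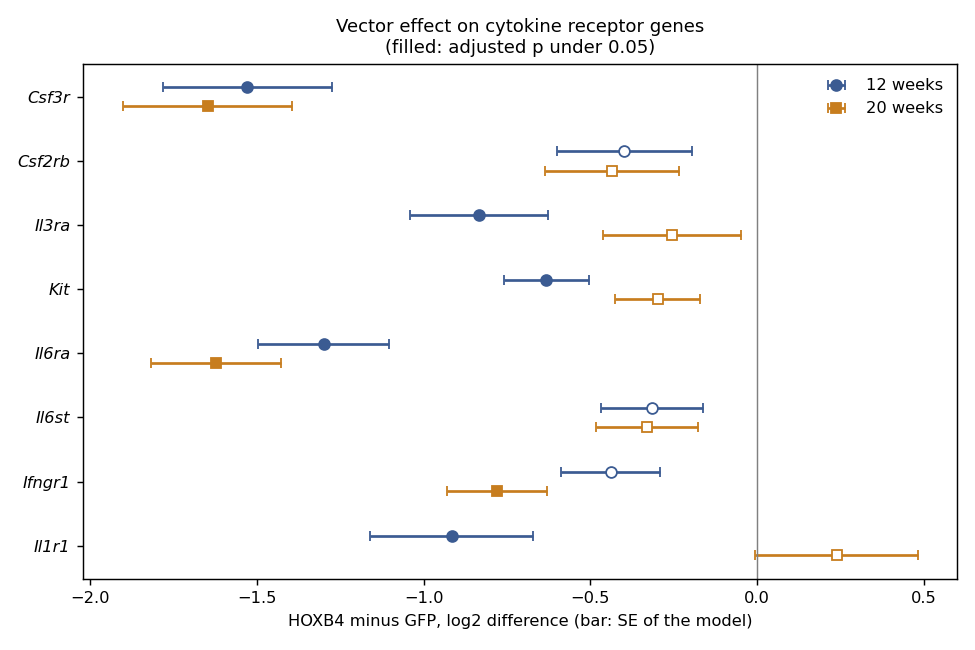
Log2 difference between HOXB4 and GFP cells for each of the 8 receptors at 12 and 20 weeks, on the horizontal axis, with the bar giving the SE of the model. Values left of 0 are lower in HOXB4 cells, and filled points passed the adjusted p of 0.05. Csf3r and Il6ra pass at both times, Kit, Il3ra and Il1r1 at 12 weeks, and Ifngr1 at 20 weeks.

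Kit, the receptor of stem cell factor and one of the proteins on which LSK cells are sorted, was modestly lower in HOXB4 cells at 12 weeks. It stood at 8.13, 7.94 and 8.14 in HOXB4 cells and at 8.69, 8.79 and 8.62 in GFP cells, and these arrays did not overlap. Kit was thus 1.55-fold lower (log2 difference -0.63, SE 0.13, limma adjusted p = 0.0141). At 20 weeks it read 7.89, 8.38 and 8.05 in HOXB4 cells and 8.44, 8.45 and 8.33 in GFP cells. HOXB4 array 2 lay above the lowest GFP array, and the difference was -0.30 (SE 0.13, adjusted p = 0.180). Without that array Kit was called at 20 weeks, with a difference of -0.44, against 7.76% of all genes. HOXB4 cells at 6 weeks gave 8.32, 8.08 and 8.22. The Kit signal says nothing of the amount of surface protein, on which the cells were selected.

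Il3ra, the ligand-binding chain of the interleukin-3 receptor, was lower in HOXB4 cells at 12 weeks. Its signal there was 5.22, 5.38 and 4.92 in HOXB4 cells and 5.81, 6.12 and 6.09 in GFP cells, without overlap. That is a 1.78-fold difference (log2 -0.83, SE 0.21, limma adjusted p = 0.0364). The HOXB4 signals lay near the array medians of 5.25 to 5.40 over all probe sets, so they may be background. At 20 weeks Il3ra read 5.33, 6.23 and 5.73 in HOXB4 cells and 6.13, 5.99 and 5.93 in GFP cells. HOXB4 array 2 was then the highest of all 6, and the difference of -0.26 (SE 0.21, adjusted p = 0.522) did not pass. HOXB4 cells at 6 weeks gave 5.19, 5.66 and 5.74.

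Csf2rb, the beta chain shared by the receptors of GM-CSF, interleukin-3 and interleukin-5, was not called by its brightest probe set. At 12 weeks it stood at 8.59, 8.44 and 8.55 in HOXB4 cells and at 9.09, 8.69 and 8.99 in GFP cells. At 20 weeks it stood at 8.28, 9.09 and 8.59 in HOXB4 cells and at 9.05, 8.97 and 9.26 in GFP cells. The groups did not overlap at 12 weeks and overlapped at 20 weeks through HOXB4 array 2. The Csf2rb differences were -0.40 (SE 0.20, limma adjusted p = 0.295) at 12 weeks and -0.44 (SE 0.20, adjusted p = 0.221) at 20 weeks. The name of this probe set marks that it can match more than 1 transcript.

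The 3 Csf2rb probe sets did not give 1 answer at 20 weeks. The dimmest by its mean read 6.16, 6.98 and 5.71 in HOXB4 cells at 20 weeks and 7.85, 7.71 and 7.74 in GFP cells, without overlap. Its difference of -1.48 (SE 0.25, limma adjusted p = 0.00174 over all probe sets) was called. At 12 weeks the same probe set read 7.12, 7.03 and 6.999 in HOXB4 cells and 7.63, 7.06 and 7.32 in GFP cells, a difference of -0.29 (SE 0.25, adjusted p = 0.592). In HOXB4 cells at 6 weeks it read 7.64, 7.36 and 7.93. Its difference between HOXB4 cells at 20 and at 6 weeks was -1.36 (SE 0.25, adjusted p = 0.00982).

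The remaining Csf2rb probe set had differences between HOXB4 and GFP cells of -0.12 (SE 0.17, limma adjusted p = 0.758) at 12 weeks and -0.43 (SE 0.17, adjusted p = 0.143) at 20 weeks. Csf2rb2, which lies next to Csf2rb and encodes a closely related beta chain used with interleukin-3 in mice, was measured by 1 probe set. Its differences were 0.15 (SE 0.21, adjusted p = 0.755) and 0.06 (SE 0.21, adjusted p = 0.913). With 1 Csf2rb probe set called and the others not, the Csf2rb result at 20 weeks depends on the probes read. With the mean of its probe sets Csf2rb was called (-0.78), against 10.5% of all genes.

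**Figure D3:**
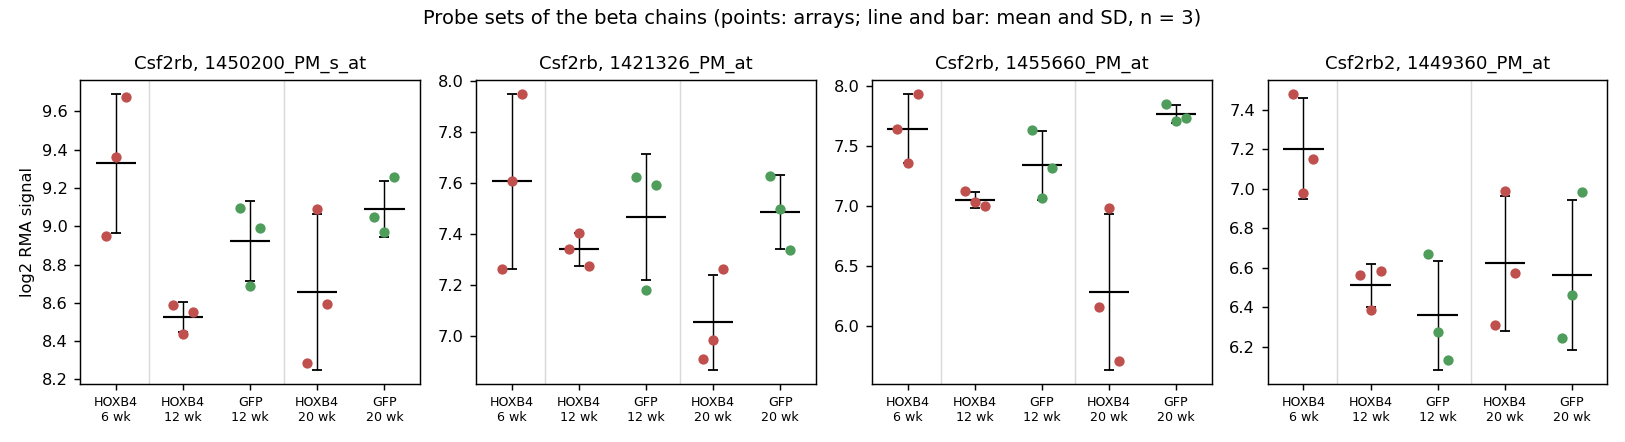
The 3 probe sets of Csf2rb and the probe set of Csf2rb2 on the 15 arrays, as log2 RMA signal on axes that differ between panels. Points are arrays, and the line and bar are the mean and SD of 3 arrays. In the third panel the 3 HOXB4 arrays at 20 weeks, at 5.71 to 6.98, lie below the GFP arrays of that time, at 7.71 to 7.85, which the first panel does not show.

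Ifngr1, the ligand-binding chain of the interferon gamma receptor, was lower in HOXB4 cells at 20 weeks. It stood there at 8.01, 7.88 and 7.51 in HOXB4 cells and at 8.64, 8.72 and 8.37 in GFP cells, with no overlap. That made Ifngr1 1.72-fold lower (log2 difference -0.78, SE 0.15, limma adjusted p = 0.00397). At 12 weeks it read 7.79, 7.84 and 7.93 in HOXB4 cells and 8.27, 8.35 and 8.27 in GFP cells. These arrays did not overlap either, but the difference of -0.44 (SE 0.15, adjusted p = 0.118) did not pass. HOXB4 cells at 6 weeks gave 8.11, 8.19 and 7.73, also below every GFP array of the later times. Ifngr2, the second chain of this receptor, had differences of -0.16 (SE 0.26, adjusted p = 0.787) at 12 weeks and -0.65 (SE 0.26, adjusted p = 0.141) at 20 weeks.

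Il1r1, the signalling receptor of interleukin-1, was high in 1 group. GFP cells at 12 weeks read 7.42, 7.37 and 7.30, above HOXB4 cells of the same time at 6.32, 6.58 and 6.43. This 1.89-fold difference (log2 -0.92, SE 0.24) passed narrowly, with a limma adjusted p of 0.0494. At 20 weeks Il1r1 read 6.13, 6.47 and 7.01 in HOXB4 cells and 6.09, 6.19 and 6.62 in GFP cells, which overlapped, with a difference of 0.24 (SE 0.24, adjusted p = 0.630). HOXB4 cells at 6 weeks gave 6.70, 5.78 and 6.67. Il1rap, the chain that joins Il1r1 on binding, had differences of -0.30 (SE 0.20, adjusted p = 0.444) at 12 weeks and -0.0047 (SE 0.20, adjusted p = 0.994) at 20 weeks.

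Leaving out single arrays changed some of the calls. Csf3r and Il6ra at both times and Ifngr1 at 20 weeks passed without any 1 array of the groups compared. Il3ra and Il1r1 at 12 weeks missed the threshold when any 1 of the 6 arrays was left out, with limma adjusted p-values of up to 0.140 for Il3ra and 0.161 for Il1r1. Kit at 12 weeks missed it without GFP array 1, GFP array 2 or HOXB4 array 2, with an adjusted p of up to 0.0723. The number of receptors called at 12 weeks was then 2 or 3 in place of 5. Calls over all genes fell as well, to between 1.25% and 2.12% in place of 4.02%.

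Whether the vector effect differed between the times was tested directly. Of the 8 receptors 0 were called, and 1 had an unadjusted p under 0.05, while 0.509% of all genes were called. That receptor was Il1r1, whose HOXB4 minus GFP difference was larger by 1.15 at 20 than at 12 weeks (SE 0.34, unadjusted p = 0.00451, limma adjusted p = 0.194). The change in effect was 0.58 (SE 0.29, adjusted p = 0.558) for Il3ra and 0.33 (SE 0.18, adjusted p = 0.597) for Kit. For Ifngr1 it was -0.34 (SE 0.21, adjusted p = 0.681), so the calls made at 1 time only are not shown to differ between the times.

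GFP cells at 20 weeks were also set against GFP cells at 12 weeks, a comparison that shares its arrays with both vector comparisons. Il1r1 was 2.09-fold lower at 20 weeks (log2 difference -1.06, SE 0.24, limma adjusted p = 0.0334), with no overlap. It was the only 1 of the 8 receptors called, against 2.37% of all genes called and 1.14% called lower. Without any 1 of the 3 arrays at 12 weeks, or without GFP array 1 or 2 at 20 weeks, Il1r1 was not called, with an adjusted p of up to 0.157. Kit differed by -0.30 (SE 0.13, adjusted p = 0.317) and Ifngr1 by 0.28 (SE 0.15, adjusted p = 0.465), and the arrays of both times were apart for each. Together 3 of 8 receptors did not overlap, against 22.2% of all genes.

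Within HOXB4 cells the receptors were not called between any times. Between 12 and 6 weeks 0 of 8 were called and 2 had an unadjusted p under 0.05, against 1.57% of all genes called. Those 2 were Csf2rb, with a difference of -0.80 (SE 0.20, limma adjusted p = 0.0619), and Il6st, with 0.55 (SE 0.15, adjusted p = 0.0760). Csf2rb at 6 weeks read 8.95, 9.36 and 9.67, above the arrays of 12 weeks, and was the only receptor of the 8 without overlap (21.1% of all genes). Il6st at 6 weeks read 7.40, 7.91 and 7.27, and array 2 lay above the lowest array of 12 weeks.

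Between 20 and 12 weeks in HOXB4 cells 0 receptors were called and 1 had an unadjusted p under 0.05, against 0.252% of all genes called. It was Il3ra, with a difference of 0.59 (SE 0.21, limma adjusted p = 0.282). Between 20 and 6 weeks 0 were called and 2 had an unadjusted p under 0.05, while 4.66% of all genes were called. The 2 were again Csf2rb, with -0.67 (SE 0.20, adjusted p = 0.0727), and Il6st, with 0.44 (SE 0.15, adjusted p = 0.116). HOXB4 array 1 of 6 weeks stood apart in its 3′ to 5′ difference of the Gapdh control probe sets, 3.76 log2 units against 0.81 to 2.02 on the other 14 arrays. Without it, Csf2rb passed in both comparisons with 6 weeks, with differences of -0.99 at 12 weeks and -0.86 at 20 weeks. Of all genes, 0.708% and 3.83% were then called. Without HOXB4 array 2 of 6 weeks, Il6st passed in both, with 0.74 at 12 weeks and 0.63 at 20 weeks. The shares of all genes called were then 5.4% and 6.53%. Without HOXB4 array 2 of 20 weeks, Csf2rb passed between 20 and 6 weeks, with -0.89, against 2.32% of all genes.

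The order of the 5 group means showed where each receptor was set apart. For Csf3r it ran from GFP at 20 weeks (8.98 ± 0.46, SD, n = 3) through GFP at 12 weeks (8.69 ± 0.16) to HOXB4 at 20 weeks (7.34 ± 0.32), 6 weeks (7.33 ± 0.54) and 12 weeks (7.16 ± 0.014). The only neighbours in that order whose arrays did not overlap were GFP at 12 weeks and HOXB4 at 20 weeks. For Il6ra the means were 8.30 ± 0.17 in GFP cells at 20 weeks, 8.04 ± 0.32 in GFP cells at 12 weeks, and 6.80 ± 0.26, 6.74 ± 0.34 and 6.68 ± 0.18 in HOXB4 cells at 6, 12 and 20 weeks. Here too the gap lay between both GFP groups and the 3 HOXB4 groups. The group means of Csf3r spanned 1.83 log2 units and those of Il6ra 1.62.

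Il1r1 spanned 1.06 log2 units, with GFP at 12 weeks (7.36 ± 0.061) alone above the HOXB4 groups at 20 weeks (6.54 ± 0.45), 12 weeks (6.45 ± 0.13) and 6 weeks (6.38 ± 0.52) and GFP at 20 weeks (6.30 ± 0.29). For Ifngr1, GFP at 20 weeks (8.58 ± 0.19) did not overlap GFP at 12 weeks (8.29 ± 0.046), which did not overlap the next group, HOXB4 at 6 weeks (8.01 ± 0.25). Kit had the order GFP at 12 weeks (8.70 ± 0.087), GFP at 20 weeks (8.40 ± 0.068) and HOXB4 at 6 weeks (8.21 ± 0.12), also without overlap between these neighbours. Kit at 20 weeks (8.11 ± 0.25) and 12 weeks (8.07 ± 0.11) in HOXB4 cells followed and overlapped. For Csf2rb, Il3ra and Il6st no neighbouring groups were apart. Csf2rb was highest in HOXB4 cells at 6 weeks (9.33 ± 0.36), Il3ra in GFP cells at 20 weeks (6.02 ± 0.10) and Il6st in GFP cells at 12 weeks (8.40 ± 0.08).

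Genes with the most similar pattern were sought for Csf3r, Il6ra and Il1r1, the receptors whose group means spanned at least 1 log2 unit. Likeness was the root mean square difference between the 5 centred group means, in log2 units. The gene nearest to Il6ra was Klf9, a zinc finger transcription factor, at 0.059, and Klf9 was also nearest to Csf3r, at 0.091. Klf9 stood at 5.59, 5.53 and 5.44 in HOXB4 cells at 6, 12 and 20 weeks and at 6.96 and 7.17 in GFP cells at 12 and 20 weeks. Next to Csf3r came Mcpt8, a basophil protease, at 0.095, and Il6ra itself at 0.098. Next to Il6ra came Fdps, an enzyme of isoprenoid synthesis, at 0.094, and Plppr3 at 0.097. Nearest to Il1r1 were Lipt2 at 0.068, Myct1 at 0.110 and Cd27, a receptor of the TNF receptor family on early progenitors and lymphocytes, at 0.113.

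Of 32 other cytokine receptors measured, 1 was higher and 0 were lower in HOXB4 cells at 12 weeks, and 5 were higher and 2 lower at 20 weeks. The shares of all genes called were 4.02% at 12 weeks and 8.95% at 20 weeks. Their median log2 difference was 0.04 at 12 weeks and 0.08 at 20 weeks. The gene called at 12 weeks was Il1r2, a decoy receptor of interleukin-1, which averaged 4.31 in HOXB4 and 3.73 in GFP cells (difference 0.59, SE 0.13, limma adjusted p = 0.0187). Both means lay below the array medians of 5.25 to 5.40 over all probe sets, so they may be background. At 20 weeks Csf1r, the receptor that supports monocytes and macrophages, averaged 5.71 in HOXB4 and 7.57 in GFP cells (difference -1.87, SE 0.23, adjusted p = 0.000142). The TNF receptor Tnfrsf1a was lower as well (-1.16, SE 0.21, adjusted p = 0.00269).

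The receptors higher at 20 weeks included Il17ra, the interleukin-17 receptor chain, at 11.64 in HOXB4 and 10.68 in GFP cells (difference 0.95, SE 0.15, limma adjusted p = 0.00107). Flt3, which marks lymphoid-primed progenitors, averaged 9.45 in HOXB4 and 8.03 in GFP cells (1.41, SE 0.33, adjusted p = 0.0128). Tek, the receptor of angiopoietins on stem and endothelial cells, differed by 1.78 (SE 0.51, adjusted p = 0.0403). Il10rb and Ghr differed by 0.50 and 0.49. The Ghr means, 4.25 in HOXB4 and 3.76 in GFP cells, lay below the array medians and may be background. Flt3, Tek, Il10rb and Ghr are named here to complete that count.

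The counts for the genes downstream of the receptors are read against the 4.02% of all genes called at 12 weeks and the 8.95% called at 20 weeks. Of 10 measured JAK and STAT genes 0 were called at 12 weeks (2 had an unadjusted p under 0.05), and 1 was higher at 20 weeks. That was Stat4, at 7.35 in HOXB4 and 6.43 in GFP cells (difference 0.93, SE 0.21, limma adjusted p = 0.0134). The list's median was -0.11 at 12 weeks and -0.01 at 20 weeks.

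Among 22 negative regulators of cytokine signalling, 2 were higher and 0 lower at 12 weeks, and 2 were higher and 1 lower at 20 weeks, with medians of -0.04 and -0.01. Dok2, an adaptor that dampens signalling from tyrosine kinases, was higher at both times. It averaged 7.46 in HOXB4 cells and 6.39 in GFP cells at 12 weeks (difference 1.07, SE 0.19, limma adjusted p = 0.00778) and differed by 1.39 (SE 0.19, adjusted p = 0.000357) at 20 weeks. Cish, a feedback inhibitor induced by STAT5, averaged 7.24 in HOXB4 cells and 6.12 in GFP cells at 12 weeks (1.13, SE 0.24, adjusted p = 0.0195) and was not called at 20 weeks (0.50, SE 0.24, adjusted p = 0.248). At 20 weeks Socs5 was higher (0.41, SE 0.12, adjusted p = 0.0462) and the phosphatase Ptpn6 (SHP-1) lower (-0.55, SE 0.15, adjusted p = 0.0349).

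Of 19 adaptors and kinases 0 were higher and 1 lower at 12 weeks, and 1 was higher and 2 lower at 20 weeks, with medians of -0.07 and -0.17. Pik3cb, a catalytic subunit of PI3 kinase, was lower at 12 weeks (-0.63, SE 0.15, limma adjusted p = 0.0275) and at 20 weeks (-0.71, SE 0.15, adjusted p = 0.00673). Fes, a tyrosine kinase of myeloid cells, averaged 7.09 in HOXB4 cells and 8.20 in GFP cells at 20 weeks (-1.12, SE 0.22, adjusted p = 0.00457). The Src family kinase Fyn averaged 8.37 in HOXB4 and 6.88 in GFP cells at that time (1.49, SE 0.29, adjusted p = 0.00414).

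Of 14 genes that cytokines induce, 1 was higher and 1 lower at each time, with medians of 0.02 at 12 weeks and -0.05 at 20 weeks. At 12 weeks the immediate early gene Fos averaged 7.17 in HOXB4 and 4.74 in GFP cells (difference 2.43, SE 0.58, limma adjusted p = 0.0299) and the cyclin Ccnd1 was lower (-0.77, SE 0.19, adjusted p = 0.0414). At 20 weeks the cyclin Ccnd3 was higher (0.81, SE 0.23, adjusted p = 0.0363) and Bcl3, an atypical inhibitor of NF-kappa B, lower (-0.97, SE 0.21, adjusted p = 0.00887). Of 16 measured cytokine ligands 0 were called at either time, and 2 at each time had an unadjusted p under 0.05.

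**Figure D4:**
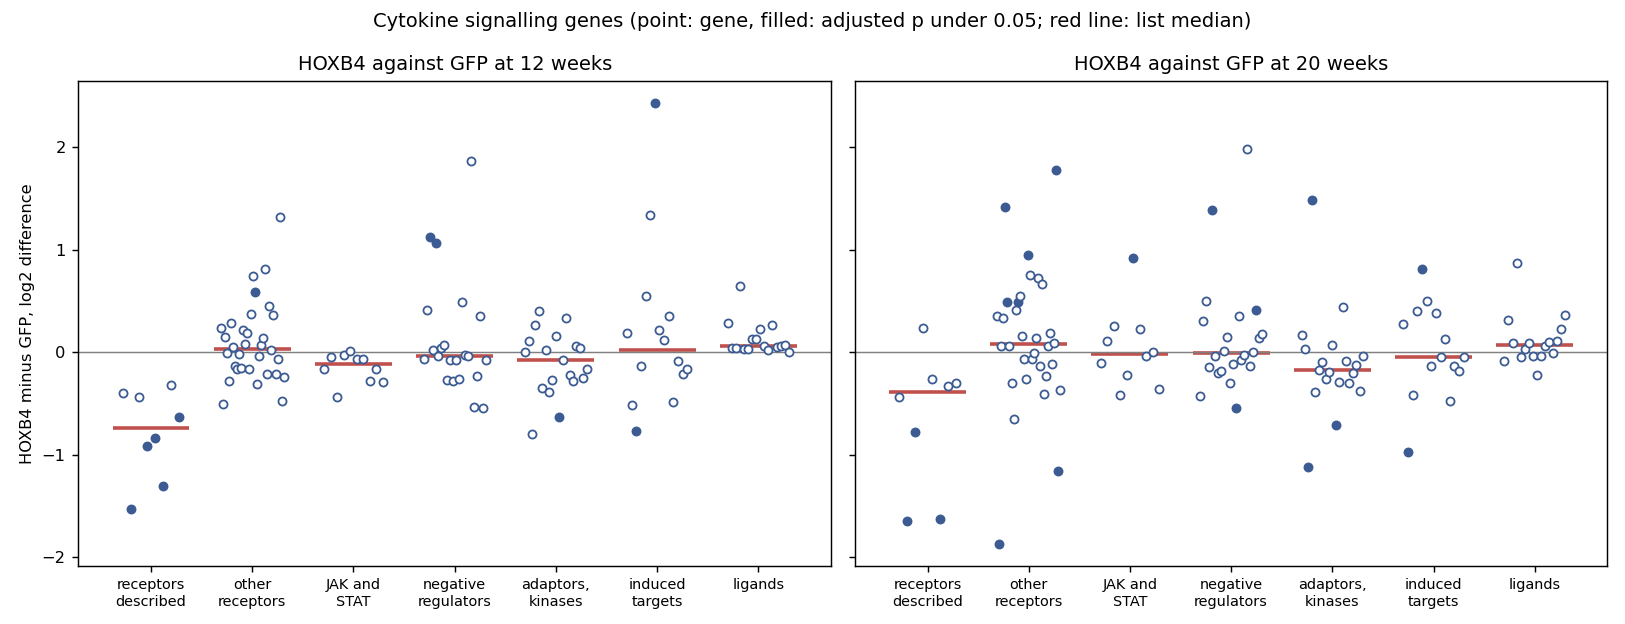
Log2 differences between HOXB4 and GFP cells for the measured genes of the receptors described here and of 6 lists of cytokine signalling genes, at 12 and 20 weeks. Each point is a gene, filled where its adjusted p was under 0.05, and the bar is the median of the list. The medians of the 6 lists lie between -0.17 and 0.08, while the 8 receptors have medians of -0.73 and -0.38. Receptors and lists were chosen with earlier results of these data known, so this contrast is not a test.

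Markers of myeloid progenitors were lower alongside the receptors. Counts for the marker lists are read against the 4.02% of all genes called at 12 weeks and the 8.95% at 20 weeks. Of 7 measured markers of granulocyte-monocyte progenitors, which carry Csf3r and Il6ra, 6 were lower in HOXB4 cells at 12 weeks and 7 at 20 weeks, with median log2 differences of -1.79 and -2.97. Their mean log2 signal per array ran from 8.39 to 8.80 in HOXB4 cells and from 10.19 to 10.42 in GFP cells at 12 weeks. By 20 weeks it ran from 7.46 to 8.47 in HOXB4 cells and from 10.38 to 10.90 in GFP cells. It was 8.78 to 9.84 in HOXB4 cells at 6 weeks, so all 9 HOXB4 arrays lay below all 6 GFP arrays. They did so for Csf3r, Il6ra and Ifngr1 as well, and the share of all genes with this split was not computed. One of these markers is Cebpa, a C/EBP transcription factor of granulocyte development, which differed by -1.53 (SE 0.23, limma adjusted p = 0.00319) at 12 weeks and by -2.69 (SE 0.23, adjusted p = 8.93e-06) at 20 weeks. The part of these cells in the receptor differences was not tested.

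Markers of mature neutrophils, which also carry Csf3r, were called in opposite directions at the 2 times. Of 8 measured, 1 was higher and 0 lower in HOXB4 cells at 12 weeks, whereas 0 were higher and 7 lower at 20 weeks. The vector effect itself differed between the times for 3 of the 8, against 0.509% of all genes. At 12 weeks their mean log2 signal lay between 8.003 and 8.59 in HOXB4 arrays and between 6.69 and 7.52 in GFP arrays. At 20 weeks it lay between 6.47 and 7.71 in HOXB4 arrays and between 9.42 and 9.48 in GFP arrays. At 12 weeks Csf3r was lower in the HOXB4 arrays, in which this list was higher. Any link between this list and Csf3r was not tested. Of 6 monocyte and macrophage markers, Csf1r among them, 1 was lower at 12 weeks and 4 at 20 weeks. Their mean log2 signal at 12 weeks lay between 6.24 and 6.60 in HOXB4 arrays and between 6.82 and 7.05 in GFP arrays. By 20 weeks it lay between 6.24 and 6.53 in HOXB4 arrays and between 7.91 and 8.09 in GFP arrays. In HOXB4 arrays at 6 weeks it lay between 5.81 and 6.56, so every HOXB4 array lay below every GFP array here too.

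B cell markers were higher in HOXB4 cells, 6 of 6 at 12 weeks and 1 of 6 at 20 weeks. This list averaged between 8.81 and 9.48 in HOXB4 arrays and between 5.61 and 6.03 in GFP arrays at 12 weeks. For 20 weeks the ranges were 9.27 to 10.32 in HOXB4 arrays and 6.48 to 8.72 in GFP arrays. In HOXB4 cells at 6 weeks the B cell list ran from 5.72 to 9.23, a wide spread over 3 arrays. The arrays hold no detection calls, so which of these markers were absent from a group cannot be given. Of the proteins that define the gate, Kit was measured, at 7.89 to 8.79 over the 15 arrays, and Ly6a (Sca-1) has no single-symbol probe set here. The part of other cell types in any receptor difference was not tested.

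**Figure D5:**
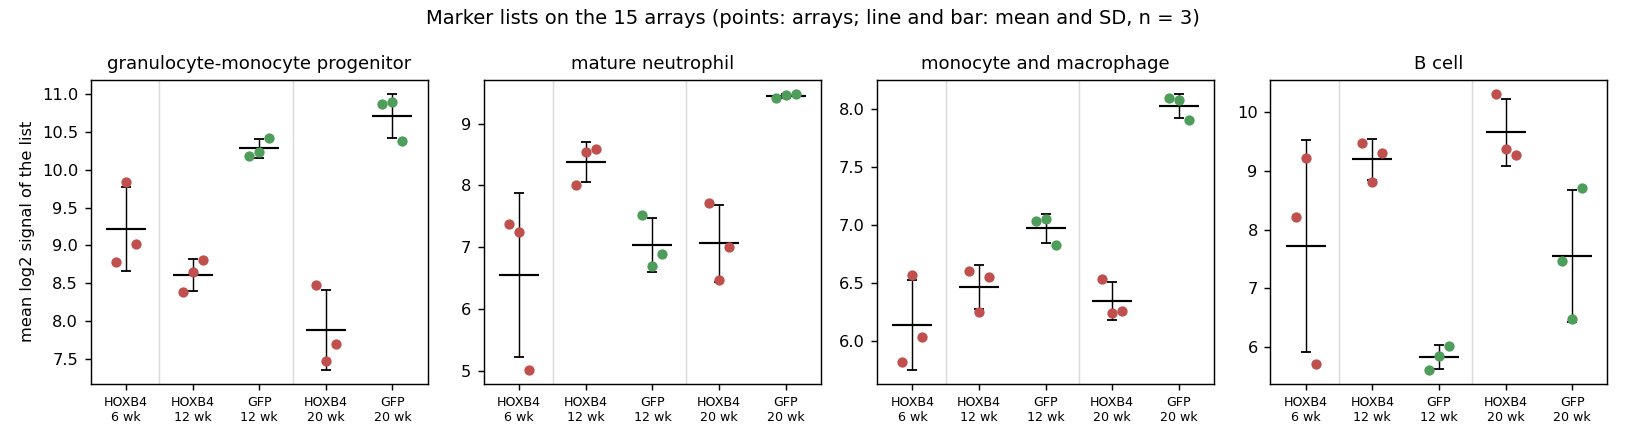
Mean log2 RMA signal of 4 marker lists on the 15 arrays, 1 list per panel on axes that differ between panels. Points are arrays, and the line and bar are the mean and SD of 3 arrays. The granulocyte-monocyte progenitor list reaches at most 9.84 in the 9 HOXB4 arrays and at least 10.19 in the 6 GFP arrays. The monocyte and macrophage list reaches at most 6.60 in the HOXB4 arrays and at least 6.82 in the GFP arrays. The mature neutrophil list is higher in HOXB4 cells at 12 weeks and lower at 20 weeks.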

How the data were processed

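The values are the authors' deposited log2 expression values for 45141 probe sets on 15 arrays, made with RMA (background correction, quantile normalisation and summary of probes) in Partek 6.5, per the submitters' processing notes. Further filters or scaling are not given in the sources used here. RNA was taken from uncultured cells with the RNAqueous-Micro kit and 20 ng was amplified with NuGEN reagents, per the labels' protocols. The times are those of the sample titles; the series text names another last time. None of the 15 arrays is from GFP cells at 6 weeks, so HOXB4 cells at 6 weeks have no control of their own time here.

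Gene symbols came from the platform annotation, updated against GRCm38.p6 (28898 with 1 symbol, 551 with several, 15692 not listed there). The brightest of each gene's probe sets gave 17097 genes. All arrays entered 1 model with a mean per group in limma 3.58.1 (R 4.3.3), with 10 residual and 4.55 prior degrees of freedom, two-sided tests and Benjamini-Hochberg adjustment in each of 7 comparisons, checked on simulated data. An exact permutation test of 3 arrays against 3 cannot go below 0.1. Since the labels name no separate mice, p-values measure only how these arrays vary, which may be technical variation, and the number of arrays limits the precision. Array medians were 5.25 to 5.40. Correlations between arrays were 0.967 to 0.994 within groups and 0.948 to 0.987 between groups.

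The receptors, the 18 gene lists (6 of signalling genes, 12 of cell markers) and the tests were chosen with earlier results of these data known. Named genes are the receptors, up to 4 genes per list with the smallest p among those called in a vector comparison, and the 3 nearest in pattern to a receptor spanning 1 log2 unit, predicted genes passed over. Alternatives were the groups in the fit, a filter on dim genes, the probe sets read, normalisation, moderation, array weights, a replicate block and leaving out each array.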

Additional observations from a re-analysis of the deposited data

How the results depend on the processing

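Across 16 other settings in each vector comparison, Csf3r and Il6ra at both times and Ifngr1 at 20 weeks kept their direction and their call, with log2 differences, HOXB4 minus GFP, of -1.62 to -1.42 and -1.91 to -1.49 for Csf3r, -1.42 to -1.11 and -1.72 to -1.46 for Il6ra, and -0.88 to -0.63 for Ifngr1. At 12 weeks Kit kept its call in 13 of 16 settings, Il3ra in 10 and Il1r1 in 8, and Il1r1 in GFP cells at 20 against 12 weeks in 9 of 15. No called receptor changed sign. At 12 weeks 5 receptors were called, but 2 to 3 without any 1 array, and 6 with only the groups compared or with array weights, which added Ifngr1. At 20 weeks 3 were called, 4 with the mean of probe sets (adding Csf2rb, -0.78), and 3 to 4 without any 1 array (adding Kit, -0.44, without HOXB4 array 2). Of all genes, 10.5% were called with the mean of probe sets and 7.76% without HOXB4 array 2 at 20 weeks, in place of 8.95%. The difference between the vector effects had 0 calls, or 1 with array weights (Il1r1, 1.21), and 0 to 0 without any 1 array. With array weights 3.29% of all genes were called for that difference, in place of 0.509%.

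For GFP cells at 20 against 12 weeks, 1 was called, but 0 after further quantile normalisation and 0 to 1 without any 1 array. For HOXB4 cells at 12 against 6 weeks, 0 were called, but 1 with the dimmest 33.3% of genes removed (Csf2rb, -0.80), 1 with the mean of probe sets (Il6st, 0.47), 1 with array weights (Csf2rb, -0.80), and 0 to 1 without any 1 array. Of all genes, 2.71%, 1.79% and 1.99% were called under these 3 settings, in place of 1.57%. For HOXB4 cells at 20 against 6 weeks, 0 were called, but 1 with the mean of probe sets (Csf2rb, -0.86) and 0 to 1 without any 1 array. With the mean of probe sets 4.13% of all genes were called there, in place of 4.66%. Of all genes at 12 weeks, 688 were called, against 2593 with only the groups compared, 2791 with array weights and 214 to 362 without any 1 array. At 20 weeks the counts were 1530, 715 with only the groups compared, and 798 to 1585 without any 1 array. In HOXB4 cells at 12 against 6 weeks they were 268, 20 with only the groups compared, and 0 to 923 without any 1 array. At 20 against 6 weeks they were 796, 1 with only the groups compared, and 397 to 1116 without any 1 array. The cause of these changes was not tested.

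Arrays of different groups with the same replicate number were not more alike than those with different numbers. Correlations of their deviations from the group means were -0.167 to 0.115 for the same number, with a median of -0.030. For different numbers they were -0.175 to 0.250, with a median of 0.023. With the replicate block the calls stayed at 5 at 12 weeks, 3 at 20 weeks, 0 for the difference of the effects and 1 for GFP over time. Without the HOXB4 array with the high Gapdh difference, an alternative chosen after seeing the data, the counts were 5 at 12 weeks and 3 at 20 weeks. The arrays carry no detection calls, so a low signal may be background.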

Other observations

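The other marker lists gave these counts between HOXB4 and GFP cells, where 4.02% of all genes were called at 12 weeks and 8.95% at 20 weeks. Of 3 measured eosinophil markers 2 were lower at 12 weeks and 3 at 20 weeks. Of 6 mast cell and basophil markers 1 was higher and 2 lower at 12 weeks, and 3 were higher and 2 lower at 20 weeks. Of 6 megakaryocyte markers 2 were higher at 12 weeks and 4 at 20 weeks, and 0 were lower. Of 4 lymphoid-primed markers, Flt3 among them, 1 was higher at 12 weeks and 4 at 20 weeks. Of 6 stem cell markers 0 were called at 12 weeks (4 had an unadjusted p under 0.05 in limma) and 1 was higher at 20 weeks. Of 4 erythroid markers 0 were called at 12 weeks (0 had an unadjusted p under 0.05) and 1 was higher at 20 weeks. Of 4 T cell markers 0 were called at either time, and 1 at each time had an unadjusted p under 0.05.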
